A study of Rattus norvegicus with 16 samples.

Results

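Genes of inhibitory and cholinergic transmission were followed in the newborn rat cochlea: the GABA-synthesizing enzyme Gad1, the subunits of GABA-A, rho and GABA-B receptors, the glycine receptor subunits, and the nicotinic and muscarinic acetylcholine receptors. Members were chosen by name alone, as every analysed probe set whose gene symbol begins with Gabr, Gabbr, Glra, Glrb, Gad1, Gad2, Chrn or Chrm. The rule gave 59 probe sets for 40 genes, of 720 named genes and 1263 probe sets that were not controls, and the rule uses no measured value. Gad2 and Glrb were not analysed here.

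Each array, an Affymetrix Rat Neurobiology U34 chip, held total RNA pooled from 12 cochleae of newborn rats, and native pools came from 6 animals. The organ of Corti carries the hair cells, the modiolus the spiral ganglion neurons and their fibres, and the stria vascularis the epithelium that secretes endolymph. Each region was taken native, as an explant after 24 h of normoxic culture, or as an explant that passed through 5 h of hypoxia at 10 to 20 mmHg oxygen, begun 3 h after plating and followed by 16 h of recovery. All 9 groups had 2 arrays, except native modiolus and native stria vascularis with 1 array each. For those 2 arrays the label fields disagree, 1 field calling the tissue fresh and another placing its collection after 24 h of cultivation, so that results for culture are also given from the organ of Corti alone. The labels do not say whether repeats came from separate litters or cultures, so that p-values measure only the spread between these arrays.

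GABA opens chloride channels built from GABA-A or rho subunits and also acts through GABA-B receptors, which couple to G proteins as pairs of Gabbr1, the subunit that binds GABA, and Gabbr2, the subunit that activates the G protein. Acetylcholine opens nicotinic channels, built from muscle-type or neuronal subunits, and activates muscarinic receptors that couple to G proteins. In the cochlea both transmitters are best known from the efferent olivocochlear fibres, which reach the hair cells and the dendrites of spiral ganglion neurons.

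Signals are the deposited intensities, on a linear scale, and a probe set counted as above background where it exceeded the 95th percentile of 23 control probe sets against foreign sequences on the same array. That percentile ran from 236.8 to 772.2 and was highest on the first normoxic array of the organ of Corti. The median signal ran from 555.4 to 939. Native arrays had ratios of the 3′ to the 5′ probe set of Gapdh from 3.39 to 4.76, cultured arrays from 1.07 to 1.39, so that this sign of RNA quality moves with culture. The same ratio for beta-actin did not, with 1.67 to 2.41 on native arrays and 1.73 to 2.78 on cultured arrays. Scan dates fell in 3 calendar months, each taken as 1 session, and days within a month were not separated. Session 1 held every native array, session 2 repeat 1 of each culture and session 3 repeat 2. Session and culture therefore cannot be told apart. Differences are of log2(signal + 16) from 1 linear model over all arrays, given ± its standard error. Adjusted p-values come from limma, by the method of Benjamini and Hochberg across 1263 probe sets, and a call is an adjusted p under 0.05.

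Of the 59 probe sets, 10 were above background on all 16 arrays, 39 on 1 to 15 arrays and 10 on no array. The 10 seen throughout belonged to 8 genes. They comprised 3 probe sets of Gabbr1, the rho subunit Gabrr1, the GABA-A subunit Gabra6, the muscle-type nicotinic subunits Chrnb1 and Chrng, the neuronal nicotinic subunit Chrnb4, and the muscarinic receptors Chrm4 and Chrm5. For 5 genes no probe set was above background on any array: Gabrb1, Gabrr2, Gabrr3, Glra2 and Glra3. The native modiolus had most members above background, 41 of 59 on its single array. Against this, 27 were above background on both native arrays of the organ of Corti and 29 on the single native array of the stria vascularis. The share over all probe sets was not counted, so these numbers may reflect the arrays as well as the members. Among the cultures the number above background on every array of a group ran from 16 in the hypoxic stria vascularis to 26 in the hypoxic organ of Corti. All 8 probe sets of neuronal nicotinic alpha subunits were above background on the single array of the native modiolus. On the normoxic arrays of that region 0 of 8 were so on both, and 5 of 8 on neither. The background of the native modiolus array was 297.2, against 705.9 and 493 on the normoxic arrays of that region. It was 362.7 and 440.3 in the native organ of Corti and 485 in native stria.

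**Figure D1:**
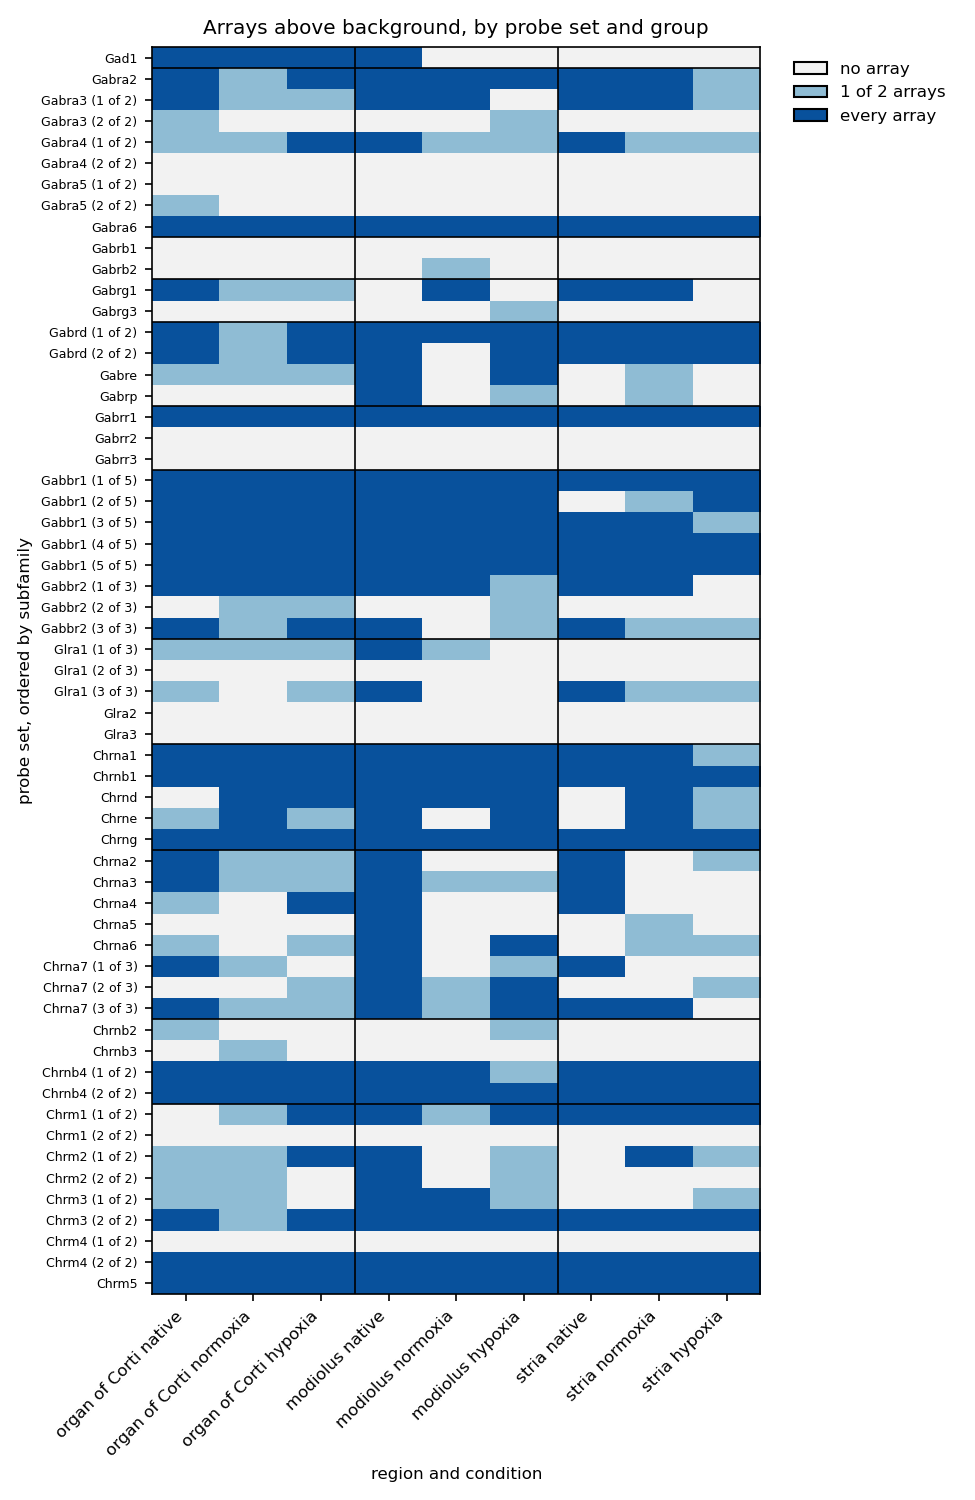
Number of arrays above background for each of the 59 probe sets (rows, ordered by subfamily, with numbers where a gene has several) in the 9 groups of region and condition (columns). Dark blue marks every array of the group, light blue 1 of 2 arrays and grey no array. The column of the native modiolus, a single array, is the fullest with 41 probe sets.

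From native tissue to normoxic culture 10 of the 59 members fell and 1 rose over the mean of the 3 regions, which is 18.6% of them. Of all 1263 probe sets 32% were called, 13.3% higher and 18.7% lower. The median difference was -0.26 over the 59 members and -0.14 over all probe sets. The members that fell were 3 of 5 probe sets of Gabbr1, 1 of 3 of Gabbr2, Gad1, 1 of 2 of Gabra3, Gabrr1, 1 of 3 of Chrna7, Chrna4 and 1 of 2 of Chrm3. The member that rose was Chrnd. By subfamily, 4 of 8 GABA-B probe sets fell, 2 of 8 of the neuronal nicotinic alpha subunits, 1 of 9 muscarinic, 1 of 8 GABA-A alpha and 1 of 3 rho probe sets. No call was made among the 2 GABA-A beta, 2 gamma, 4 delta, epsilon and pi, 5 glycine receptor and 4 neuronal nicotinic beta probe sets.

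Within single regions fewer calls were made. In the organ of Corti, without the native arrays whose labels disagree, 1 member rose and 2 fell, against 17.3% of all probe sets called, 8.47% higher and 8.79% lower. Chrnd rose, and AB016161cds_r_at of Gabbr1 and M16407_at of Chrm3 fell. The other members called in the mean were not called there, among them those of Chrna7, Chrna4 and Gabra3 and the further probe sets of Gabbr1. The smallest adjusted p there was 0.12 among neuronal nicotinic alpha and 0.13 among GABA-A alpha probe sets. Among modiolus arrays 1 rose and 3 fell, against 20.9% (10.1% higher, 10.8% lower). In the stria vascularis 2 fell and 0 rose, against 13.7% (7.36% higher, 6.33% lower). Whether the change in culture differed between the regions was tested with a moderated F test, which called 0 of the 59 members (6 at an unadjusted p under 0.05) and 3.33% of all probe sets.

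**Figure D2:**
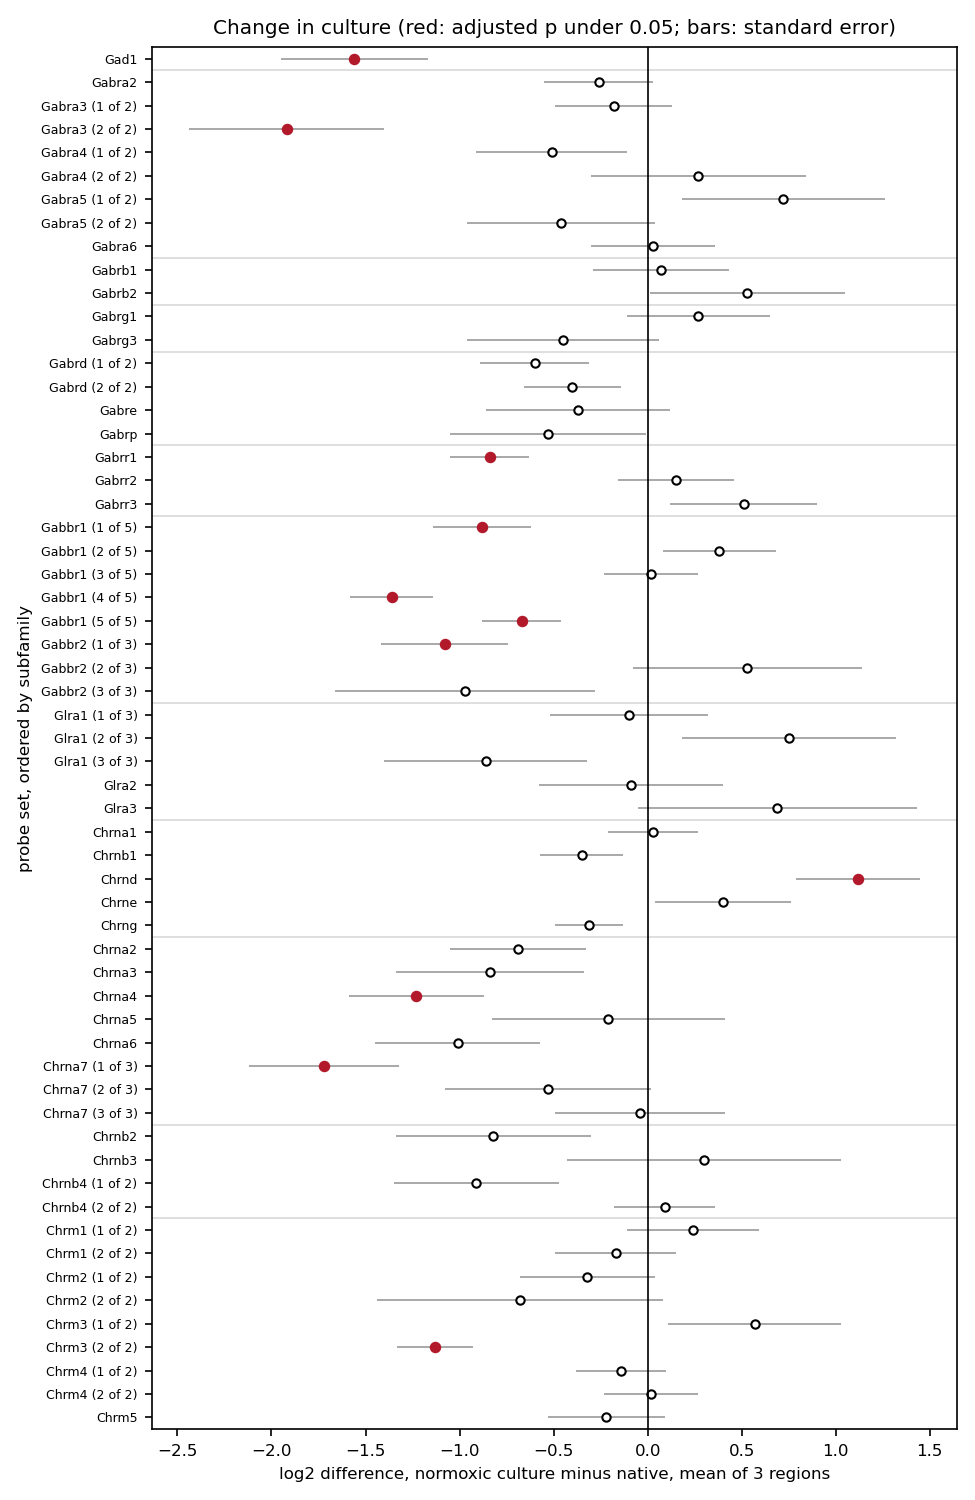
Log2 difference between normoxic culture and native tissue, as the mean of the 3 regions (horizontal axis), for the 59 probe sets by subfamily (rows). Points are model estimates, bars are standard errors, and red points have an adjusted p under 0.05. The red points are 10 probe sets below 0 and Chrnd above it.

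Gad1, the glutamate decarboxylase that makes GABA, had the lowest adjusted p of the 59 members for the cultured organ of Corti against each other region. Its single probe set (X57573_at) gave 832 and 803 in the native organ of Corti, 1156.5 and 1146 in normoxia and 1545 and 1029 after hypoxia. The modiolus gave 833 native, 156 and 58.7 in normoxia, and 354 and 478 after hypoxia. In the stria vascularis it gave 464.0 native, 75.0 and 92.9 in normoxia, and 378 and 129 after hypoxia. All 6 organ of Corti arrays and the native modiolus were above background, no other array was, and the 4 cultured arrays of the organ of Corti lay above all 8 cultured arrays of the other regions.

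Gad1 was higher in the cultured organ of Corti than in the cultured modiolus by 2.47 ± 0.41 (adjusted p = 0.00072), with 2.42 in session 2 and 2.52 in session 3. Against the cultured stria vascularis the difference was 2.99 ± 0.41 (adjusted p = 0.00028), with 2.84 and 3.13. Since the other regions were not above background, these come to at least 2.05-fold and at least 2.88-fold, with their signals raised to the background of each array. Both calls held in each of 14 fits without 1 array, and the native modiolus and stria arrays were kept in all of these, being alone in their groups. Native modiolus and organ of Corti gave nearly the same signal, with a difference of -0.03 ± 0.71 (adjusted p = 0.99).

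Averaged over the regions, Gad1 fell by 1.56 in culture, with a standard error of 0.39 (adjusted p = 0.0076). This call rests on signals below background: with those raised to background the difference was -0.11 (adjusted p = 0.79). By region it was 0.49 ± 0.58 in the organ of Corti (adjusted p = 0.66), -2.91 ± 0.71 in the modiolus (adjusted p = 0.011) and -2.27 ± 0.71 in the stria vascularis (adjusted p = 0.053). The value in the stria passed under 6 alternatives, with adjusted p-values from 0.035 with the session as a fixed term to 0.049 without a variance trend, on signals that were all below background. The fall in the modiolus is a fall of at least 1.4-fold, but the raised signals no longer passed (-0.49, adjusted p = 0.48), and neither did the fit without the second normoxic modiolus array (-2.31, adjusted p = 0.057). The test of a difference between regions gave an unadjusted p of 0.0055 and an adjusted p of 0.099.

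Of the GABA-B receptor subunits, Gabbr2 was called between both native and cultured regions. Its probe set called (AF058795_at) gave 3896 and 3659 in the native organ of Corti, 2853.5 and 1290 in normoxia and 1587 and 1100.4 after hypoxia. Modiolus arrays gave 4632 native, 754 and 507 in normoxia and 1144.5 and 486 after hypoxia. In the stria vascularis it gave 521 native, 987 and 644 in normoxia and 97.9 and 201 after hypoxia. Native organ of Corti and native modiolus were far above native stria vascularis, and in culture the values of modiolus and stria overlapped.

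In native tissue Gabbr2 was higher in the organ of Corti than in the stria vascularis by 2.82 ± 0.63 (adjusted p = 0.014) and higher in the modiolus than in the stria by 3.11 ± 0.72 (adjusted p = 0.016). Without the first or the second native organ of Corti array the former gave adjusted p-values of 0.074 and 0.069. In culture Gabbr2 was higher in the organ of Corti than in the stria by 2.17 ± 0.36 (adjusted p = 0.0011), at least 2.66-fold, with 2.67 in session 2 and 1.67 in session 3. Against the cultured modiolus it was higher by 1.21 ± 0.36 (adjusted p = 0.028), with 1.18 and 1.24. The latter call was lost in 4 of 14 fits without 1 array, those without the first normoxic or first hypoxic organ of Corti array, the second normoxic or the second hypoxic modiolus array, with differences down to 0.91 and adjusted p up to 0.11, and with only the arrays compared (adjusted p = 0.057).

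Gabbr2 fell in the modiolus in culture by 2.87, with a standard error of 0.63 (adjusted p = 0.0056). This held in all 14 fits without 1 array, none of which left out the single native modiolus array it rests on. In the organ of Corti the difference was -0.97 ± 0.51 (adjusted p = 0.24) and in the stria 0.60 ± 0.63 (adjusted p = 0.65). The F test between regions gave an adjusted p of 0.11, 0.046 with the scan session as a term and 0.0062 with dim signals raised to background. The mean over regions was -1.08 ± 0.34 (adjusted p = 0.028), a call lost in 5 of 14 fits without 1 array, with adjusted p up to 0.071. Those 5 fits left out either native organ of Corti array or the second normoxic array of 1 of the regions. The other 2 probe sets of Gabbr2, above background on 3 and 10 arrays, gave 0.53 ± 0.61 and -0.97 ± 0.69 for culture, neither of which passed. For cultured organ of Corti minus modiolus they gave -0.25 and -0.11, and -1.17 and 1.75, in sessions 2 and 3. For organ of Corti minus stria they gave 0.50 and 1.86, and -1.56 and 1.76. Neither was called between cultured regions.

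Gabbr1 had 3 probe sets above background on every array, and its 5 probe sets did not move alike. One of them (AB016161cds_r_at) gave 6775 and 8942 in the native organ of Corti, 3221 and 2182 in normoxia and 3220.0 and 2288 after hypoxia. In modiolus the signals were 2392 native, 2290.3 and 1551 in normoxia and 4056 and 2064 after hypoxia. In the stria it gave 12456 native, 3021 and 2414 in normoxia and 2378 and 2198 after hypoxia. Native stria and native organ of Corti stood above every other array, and the cultured regions overlapped.

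This probe set fell by 1.36 in culture, with a standard error of 0.22 (adjusted p = 0.00046), by 1.55 in the organ of Corti alone (standard error 0.34, adjusted p = 0.0067) and in the stria the difference was -2.20 ± 0.41 (adjusted p = 0.0031). For the modiolus it was -0.34 ± 0.41 (adjusted p = 0.66). The F test between regions called this probe set only with the scan session as a term (adjusted p = 0.027). The call in the organ of Corti was lost without the second native array (-1.35, adjusted p = 0.066) and without the second normoxic array (-1.27, adjusted p = 0.072). In native tissue it was higher in the organ of Corti than in the modiolus by 1.70 ± 0.41 (adjusted p = 0.035), a call lost without the first native organ of Corti array (adjusted p = 0.08), the second (0.17) or the first hypoxic stria array (0.051), and without a variance trend (0.095). The difference of native modiolus minus native stria was -2.37 ± 0.48 (adjusted p = 0.0072), between 1 array and 1 array.

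Of the other probe sets of Gabbr1, AB016160_at gave 3872.5 and 3347 in the native organ of Corti, 3733 in native modiolus and 1797.5 in native stria, and 992 to 2325 on the 6 normoxic arrays. Normoxic arrays lay below the native arrays of their own region in 6 of 6 cases, and the mean difference was -0.88 ± 0.26 (adjusted p = 0.02). Hypoxic arrays gave 1160 to 2987. A further probe set (rc_AA926213_g_at) gave 2149 and 2412 in the native organ of Corti, 2746 in native modiolus and 1781 in native stria, 1171 to 1560.2 in normoxia and 1009 to 2581 after hypoxia. It was again below native on 6 of 6 normoxic arrays, with a mean of -0.67 ± 0.21 (adjusted p = 0.026). Neither of these 2 probe sets had its highest native value in the stria, as AB016161cds_r_at did. Their calls were lost after quantile normalization, at adjusted p-values of 0.056 and 0.065. Without 1 array AB016160_at was lost in 2 of 14 fits, those without the first native (-0.84, adjusted p = 0.05) and without the second normoxic organ of Corti array (-0.80, adjusted p = 0.052). The call of rc_AA926213_g_at was lost in 3 of 14, without the second native organ of Corti or the second normoxic array of organ of Corti or stria (adjusted p up to 0.058).

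The other 2 probe sets of Gabbr1 gave 0.38 ± 0.30 and 0.02 ± 0.25 for culture and did not pass. The first of these (AB016160_g_at) gave 535 and 862 in the native organ of Corti, 1078 and 764 in normoxia, 852 and 1081 after hypoxia, 440 and 253 in normoxic stria and 824 and 426 in hypoxic stria, with 362 in native stria. The modiolus arrays gave 534 native, 1034.5 and 912 in normoxia and 678 and 856 after hypoxia. It was called higher in the cultured organ of Corti than in the cultured stria by 1.04 ± 0.32 (adjusted p = 0.046), with 0.66 in session 2 and 1.42 in session 3, but the call was lost in 12 of 14 fits without 1 array and fell to 0.71 (adjusted p = 0.19) after quantile normalization. The groups of that comparison overlap.

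**Figure D3:**
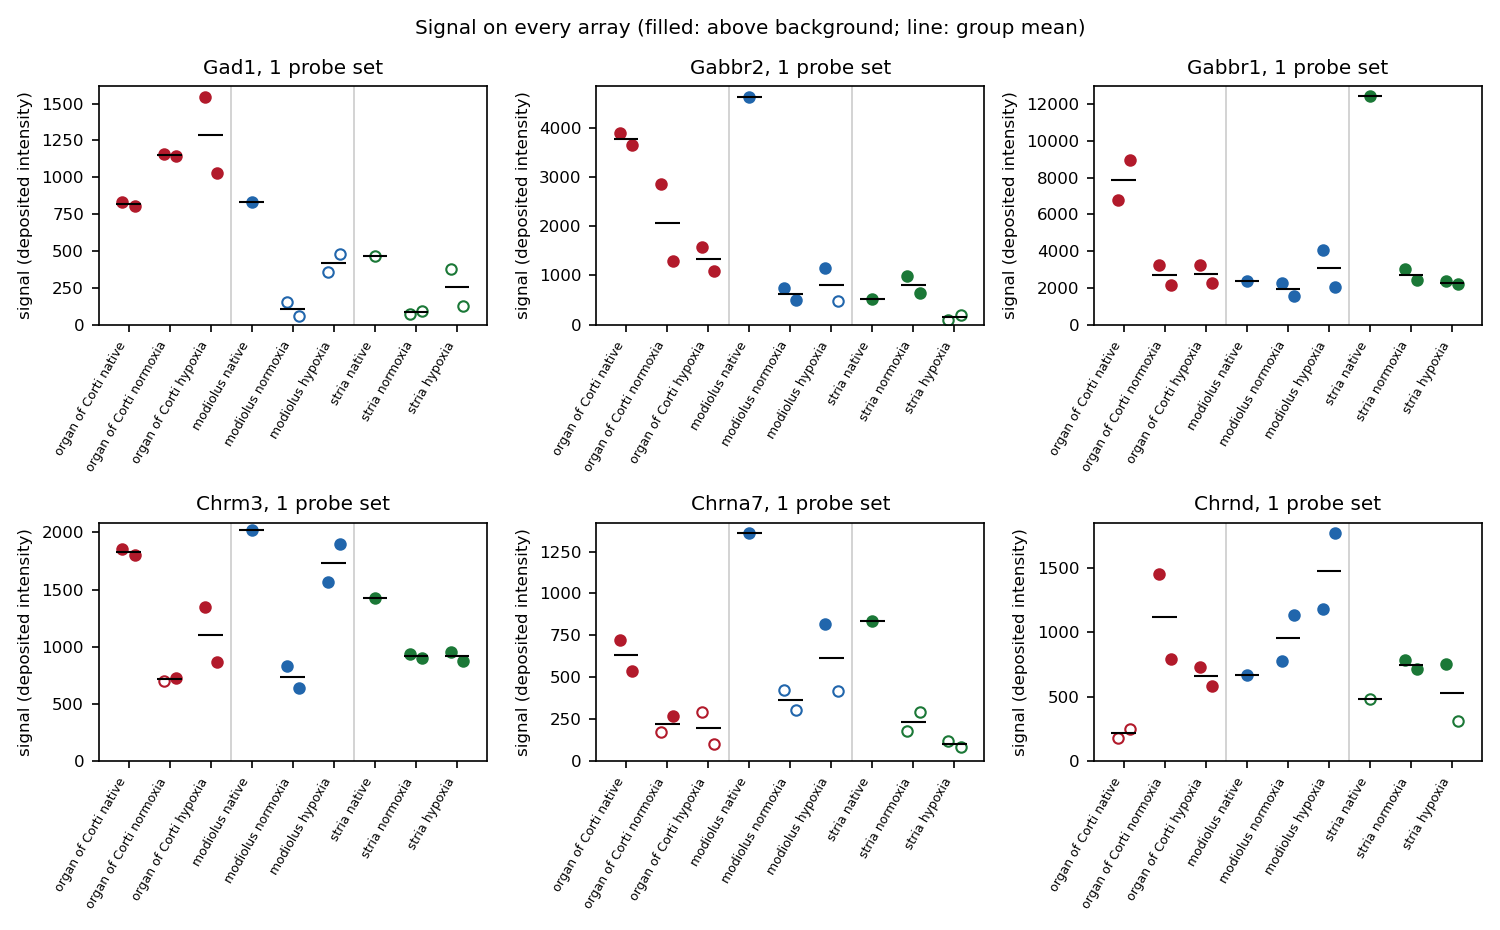
Deposited signal on each of the 16 arrays (vertical axis, linear and from 0) in the 9 groups (horizontal axis) for 1 probe set each of Gad1, Gabbr2, Gabbr1, Chrm3, Chrna7 and Chrnd. Filled points lie above the background of their array, open points do not, and lines are group means. Gad1 is filled on the 6 arrays of the organ of Corti and on native modiolus.

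The promoters of Gad1 and of both GABA-B subunits are shown. Gad1 and 1 of 3 probe sets of Gabbr2 were called higher in the cultured organ of Corti than in both other regions, and Gabbr1 is the partner of Gabbr2. Each sequence is the 250 bases before the annotated gene start, read on the strand of the gene from RefSeq promoters of the rat build GRCr8. Capitals mark matches on either strand to a GC box (GGGCGG) or a TATA box (TATAAA); 30.5% of 33469 rat promoters of the same length hold the former and 12.9% the latter. They lie at chr3:75777202-75777451 (plus strand) for Gad1, chr5:66083696-66083945 (minus strand) for Gabbr2 and chr20:1499237-1499486 (minus strand) for Gabbr1.
Gad1: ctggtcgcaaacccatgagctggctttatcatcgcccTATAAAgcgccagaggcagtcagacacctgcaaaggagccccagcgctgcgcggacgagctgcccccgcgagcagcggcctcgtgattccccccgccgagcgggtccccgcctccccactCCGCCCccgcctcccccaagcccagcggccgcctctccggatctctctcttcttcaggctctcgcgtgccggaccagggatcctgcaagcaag
Gabbr2: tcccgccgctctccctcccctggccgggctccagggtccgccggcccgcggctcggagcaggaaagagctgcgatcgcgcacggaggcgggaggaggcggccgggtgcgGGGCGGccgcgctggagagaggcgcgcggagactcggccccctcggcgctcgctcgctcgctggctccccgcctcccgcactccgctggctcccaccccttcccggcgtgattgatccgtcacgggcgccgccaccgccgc
Gabbr1: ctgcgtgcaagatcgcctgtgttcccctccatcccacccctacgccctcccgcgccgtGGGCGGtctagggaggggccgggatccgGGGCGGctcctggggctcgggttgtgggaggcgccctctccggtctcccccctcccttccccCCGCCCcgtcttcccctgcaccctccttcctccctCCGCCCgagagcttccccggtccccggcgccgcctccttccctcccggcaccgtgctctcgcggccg

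The Gad1 sequence holds 1 match to the TATA box, near the end farthest from the gene start, and 1 match to the GC box. The Gabbr2 sequence holds 1 GC box and the Gabbr1 sequence holds 4. G and C make up 68.4%, 78.8% and 75.6% of them, against a median of 51.2% over all promoters. None of the 3 holds an AP-1 site (TGACTCA, 4.05% of promoters) or a cyclic AMP response element (TGACGTCA, 1.59%). Promoters were in the RefSeq table for 33 of the 40 genes, and 20 of these 33 hold a GC box. A match is a description of the letters and was not tested for binding.

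Of the GABA-A and rho subunits, Gabra6 and Gabrr1 were above background on all 16 arrays, 1 probe set of Gabrd on 15 and Gabra2 on 14. Gabrr1, a rho subunit best known from retinal bipolar cells, gave 2177 and 2195 in the native organ of Corti, 1327 and 1094 in normoxia and 1021 and 857 after hypoxia. Modiolus signals were 2211.5 native, 1732 and 1980.5 in normoxia and 1698 and 1221 after hypoxia. In the stria it gave 2668 native, 718.5 and 1334 in normoxia and 1019 and 1214.5 after hypoxia. Every cultured array lay below the native arrays of its region.

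Gabrr1 fell by 0.84 over the mean of the regions, with a standard error of 0.21 (adjusted p = 0.0082), and this held in all 14 fits without 1 array. In the stria it fell by 1.43 (standard error 0.39, adjusted p = 0.028), which was lost without the first normoxic stria array (-0.99, adjusted p = 0.16) and after quantile normalization (-1.22, adjusted p = 0.07). In the organ of Corti the difference was -0.85 ± 0.32 (adjusted p = 0.094) and in the modiolus -0.25 ± 0.39 (adjusted p = 0.75). The other rho subunits, Gabrr2 and Gabrr3, were not above background on any array. Gabrr3 was nonetheless called lower in the cultured organ of Corti (36.8, 45.7, 73.1 and 69.6) than in the cultured modiolus (194.5, 246, 204.0 and 73.1), by -1.36 ± 0.41 (adjusted p = 0.029). The groups touch at 73.1, no fold is given below background, and the call was lost in 7 of 14 fits without 1 array, with adjusted p up to 0.11.

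Gabra6, the alpha subunit best known from cerebellar granule cells, was above background on all arrays, from 306 to 1227. It gave 455 and 488 in the native organ of Corti, 960 in native modiolus and 707 in native stria, 306 to 915 in normoxia and 446 to 1227 after hypoxia, and native and cultured arrays overlapped (0.03 ± 0.33, adjusted p = 0.96). Gabrd, the delta subunit of receptors outside synapses, gave 1896 and 1824 in the native organ of Corti, 1633 in native modiolus and 2754 in native stria, 560 to 1793 in normoxia and 980 to 2694 after hypoxia (culture -0.60 ± 0.29, adjusted p = 0.14). Without the second normoxic organ of Corti array that difference was -0.85 and passed (adjusted p = 0.014), with 560 as the 1 normoxic value of that region.

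Gabrg1, a gamma subunit, gave 900 and 727 in the native organ of Corti, 732 in native stria and only 127.5 in native modiolus. Normoxic organ of Corti gave 598 and 398, normoxic modiolus 724 and 629 and normoxic stria 427 and 425. After hypoxia it gave 774.5 and 230, 421.5 and 347, and 451 and 233.5 in the same order of regions. It rose in the modiolus in culture by 2.27 ± 0.70 (adjusted p = 0.037), at least 2.21-fold, which rests on the 1 native modiolus array. That call was lost in 5 of 14 fits without 1 array, those without either native organ of Corti array, either normoxic modiolus array or the second normoxic stria array (adjusted p from 0.051 to 0.10), and with dim signals raised to background (1.14, adjusted p = 0.25). Native organ of Corti against native modiolus gave 2.52 ± 0.70 (adjusted p = 0.058), and passed with the session as a fixed term (adjusted p = 0.021) or random block (0.031), the replicate block (0.024), quantile normalization (0.03), median centring (0.041) and the filter on dim probe sets (0.048). Native modiolus minus native stria gave -2.38 ± 0.81 (adjusted p = 0.10), and passed with the session as a fixed term (0.04), the replicate block (0.042), quantile normalization (0.037) and median centring (0.039). Both rest on that same native modiolus array.

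One of 2 probe sets of Gabra3 (X51991_at), an alpha subunit, was above background on only 2 arrays. It gave 424 and 330 in the native organ of Corti, 251 in native modiolus and 431 in native stria, 55.2 to 98.0 in normoxia and 80.5 to 555 after hypoxia. Its difference in culture of -1.92 ± 0.52 (adjusted p = 0.013) turned to 0.21 (adjusted p = 0.71) with dim signals raised to background. The other probe set of Gabra3, above background on 11 arrays, gave -0.18 ± 0.31 (adjusted p = 0.71). Among the GABA-A members not yet named, differences in culture ran from -0.53 for Gabrp to 0.72 for 1 probe set of Gabra5, and none passed.

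The 5 glycine receptor probe sets were above background on 0 to 6 arrays each. Glra1, the alpha subunit of glycine receptors in adult spinal cord and brainstem, had 1 probe set (X55246_at) above background on 6 arrays. This one gave 110.5 and 672 in the native organ of Corti, 536 in native modiolus, 513 in native stria, 94.5 to 420 in normoxia and 130 to 580 after hypoxia, and native and cultured arrays overlapped (culture -0.86 ± 0.54, adjusted p = 0.27). A second probe set of Glra1 (D00833_g_at) was above background on no array, with signals of 8.9 to 388. It was called lower in the cultured organ of Corti than in the cultured modiolus by -1.80 ± 0.61 (adjusted p = 0.047; sessions -0.72 and -2.88) and higher in the cultured modiolus than in the stria by 2.09 ± 0.61 (adjusted p = 0.024; sessions 0.81 and 3.38). With signals raised to background both calls were lost, at -0.45 (adjusted p = 0.40) and 0.49 (adjusted p = 0.31), and without 1 array they were lost in 10 and 5 of 14 fits, with adjusted p up to 0.19 and 0.10.

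Among muscarinic receptors Chrm3, which couples to the Gq protein, was called in culture. One of its 2 probe sets (M16407_at), above background on 15 arrays, gave 1852 and 1801 in the native organ of Corti, 702 and 729 in normoxia and 1348 and 866 after hypoxia. For the modiolus it gave 2018 native, 829 and 640.1 in normoxia and 1565 and 1900.3 after hypoxia. In the stria it gave 1423 native, 936.5 and 903 in normoxia and 958 and 877 after hypoxia. Normoxic arrays lay below the native arrays of their region in 6 of 6 cases, and hypoxic modiolus lay between its normoxic and native values.

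Chrm3 fell by 1.13 in culture (standard error 0.20, adjusted p = 0.00078) and by 1.33 in the organ of Corti alone (standard error 0.30, adjusted p = 0.008). In the modiolus it fell by 1.45 (standard error 0.37, adjusted p = 0.013), and in the stria the difference was -0.62 ± 0.37 (adjusted p = 0.36). The mean held in all 14 fits without 1 array. The call in the organ of Corti was lost without its first native array (-1.31, adjusted p = 0.058) and that in the modiolus without its second normoxic array (-1.27, adjusted p = 0.058). The other probe set of Chrm3, above background on 7 arrays, gave 0.57 ± 0.46 (adjusted p = 0.40), the opposite sign.

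Chrm4, a muscarinic receptor that couples to the Gi protein, had 1 probe set above background on all arrays. It gave 1232 and 1073 in the native organ of Corti, 1235 in native modiolus, 1215 in native stria, 1002 to 1708 in normoxia and 911.5 to 1768 after hypoxia, with native values inside the range of the cultures (0.02 ± 0.25, adjusted p = 0.96). Chrm5 was above background on all arrays as well and gave -0.22 ± 0.31 (adjusted p = 0.65). The probe sets of Chrm1 and Chrm2 gave differences from -0.68 to 0.24, of which none passed.

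Chrna7, the neuronal subunit that forms channels of its own kind alone, was measured by 3 probe sets. The first (L31619_at) gave 724 and 536 in the native organ of Corti, 1360 in native modiolus and 835 in native stria. Normoxic organ of Corti gave 171 and 266.5, normoxic modiolus 423 and 302 and normoxic stria 179 and 291.5, and after hypoxia the values were 293.5 and 105, 816 and 416, and 119 and 85.9 in the same order. All 6 normoxic arrays lay below native tissue, and no group of them was above background on both arrays. The fall was 1.72 (standard error 0.40, adjusted p = 0.0049), at least 1.87-fold, and held in all 14 fits without 1 array. With dim signals raised to background the difference was -0.90 (adjusted p = 0.049).

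The second probe set of Chrna7 (L31619_g_at) gave 922 in native modiolus, 593 and 742 in normoxic modiolus and 991 and 1053 in hypoxic modiolus. In the organ of Corti it gave 179 and 103 native, 184.0 and 139 in normoxia and 642 and 116 after hypoxia, and in the stria 388 native, 127 and 165 in normoxia and 68.1 and 405 after hypoxia. The 4 cultured modiolus arrays lay above those of the stria, and 1 organ of Corti array overlapped them. In culture it was higher in the modiolus than in the stria by 2.27 ± 0.58 (adjusted p = 0.013), at least 1.86-fold (sessions 2.84 and 1.70), and lower in the organ of Corti than in the modiolus by -1.88 ± 0.58 (adjusted p = 0.032), at least 1.85-fold (sessions -1.11 and -2.65). With signals raised to background both missed the threshold, at adjusted p-values of 0.063 and 0.07. The second was also lost after median centring. Without 1 array it was lost in 7 of 14 fits, with values from -2.46 to -1.30 and adjusted p up to 0.13.

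The first probe set of Chrna7 was also called higher in cultured modiolus than in cultured stria, by 1.48 ± 0.42 (adjusted p = 0.023; sessions 1.89 and 1.07), but not after quantile normalization (1.01, adjusted p = 0.10) or median centring (1.05, adjusted p = 0.098), not with dim signals raised to background (0.66, adjusted p = 0.21), and not in 4 of 14 fits without 1 array (adjusted p up to 0.081). The third probe set (S53987_at), above background on 11 arrays, gave 492 and 488 in the native organ of Corti, 499 in native modiolus, 500.4 in native stria, 322 to 733 in normoxia and 80.0 to 727 after hypoxia (culture -0.04 ± 0.45, adjusted p = 0.96). Native arrays differed little there, and the cultures spread to both sides of them.

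Chrna4, which pairs with Chrnb2 in the main nicotine-binding receptor of the brain, gave 361 and 627 in the native organ of Corti, 923 in native modiolus and 622 in native stria. It gave 201 to 490 in normoxia and 206 to 572 after hypoxia, and was above background on 5 arrays. Its fall of 1.23 (standard error 0.36, adjusted p = 0.019) is at least 1.4-fold, shrank to -0.48 (adjusted p = 0.41) with dim signals raised to background, and missed the threshold without the second native organ of Corti array (-1.10, adjusted p = 0.052). All 8 probe sets of neuronal alpha subunits, 3 of them of Chrna7, had differences below 0, as did 38 of the 59 members. Their median was -0.76, against -0.14 over all probe sets, whose share below 0 was not counted. In the organ of Corti alone 5 of the 8 were below 0. Only 2 of the 8 were called in the mean. In normoxic modiolus 5 of the 8 were above background on no array, and in normoxic stria also 5. Among the neuronal alpha subunits not named, Chrna2, Chrna3, Chrna5 and Chrna6 gave -0.69, -0.84, -0.21 and -1.01, and none passed.

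Chrnb4, which pairs with Chrna3 in autonomic ganglia, had 2 probe sets of unlike behaviour. The one above background on all arrays (U42976_at) gave 1345 and 1068 in the native organ of Corti, 1615 in native modiolus, 1479 in native stria, 1015 to 2034 in normoxia and 753 to 2191 after hypoxia, with native values inside the range of the cultures (0.09 ± 0.27, adjusted p = 0.84). The other (J05232cds_s_at) gave -0.91 ± 0.44 (adjusted p = 0.14), and -0.91 ± 0.30 with an adjusted p of 0.022 once dim signals were raised to background.

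The 5 muscle-type subunits were each above background on 10 to 16 arrays. Chrng, the subunit of the fetal muscle receptor, gave 3706 and 3130.2 in the native organ of Corti, 3983 in native modiolus, 3160 in native stria, 2373 to 3734.5 in normoxia and 2167 to 4113 after hypoxia, with 6 of 6 normoxic arrays below the native arrays of their region by amounts that did not pass (-0.31 ± 0.18, adjusted p = 0.22). Chrnd, the delta subunit, gave 179 and 252 in the native organ of Corti, 1456 and 791 in normoxia and 734 and 583 after hypoxia. Modiolus arrays of Chrnd gave 670.4 native, 779 and 1134.5 in normoxia and 1181 and 1775 after hypoxia, and in the stria 480.5 native, 786.5 and 713 in normoxia and 752 and 311.5 after hypoxia. All 6 normoxic arrays lay above the native arrays of their region.

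Chrnd rose by 1.12 ± 0.33 over the regions (adjusted p = 0.019), at least 1.77-fold, and by 2.25 ± 0.49 in the organ of Corti alone (adjusted p = 0.0067), at least 2.62-fold. Without the first normoxic organ of Corti array the values were 0.97 (adjusted p = 0.051) and 1.82 (adjusted p = 0.071), and without the first native one the latter was 2.02 (adjusted p = 0.06). The F test gave no call between regions. Chrna1, Chrnb1 and Chrne, the other muscle-type subunits, gave 0.03 ± 0.24, -0.35 ± 0.22 and 0.40 ± 0.36, and none passed. Of the muscle markers listed, only Chrna1 itself was measured, so that a share of muscle in the dissected pieces was not tested.

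Markers of nerve cells and of Schwann cells moved with culture beside these genes. Of 10 measured neuronal markers 7 fell and 0 rose over the mean of the regions, and their summed signal went from 122012 to 132846 in the native organ of Corti to 71195 to 78334 in normoxia, and from 119301 in the native modiolus to 45932 to 53451. In native stria the sum was 16363, with Nefm, Nefh and Sncg not above background, and in normoxic stria 22788 to 23418. Taken by region, the organ of Corti had 4 neuronal markers called lower and 0 higher. Modiolus had 8 lower and 1 higher, Gap43 (0.97). Stria had 0 lower and 2 higher, Eno2 (1.10) and Sncg (3.13). The latter 2 regions each rest on 1 native array. Gap43 alone gave 26143 and 24195 of the normoxic modiolus sums, and Eno2 15239 and 15115 of those in normoxic stria. Of 5 measured Schwann cell and myelin markers 5 fell, with sums of 77442 to 85872 in the native organ of Corti against 20139 to 21994 in normoxia, 100014 against 27494 to 30328 in the modiolus and 85366 against 14180 to 17837 in the stria. S100b alone gave 50647 and 55291 of these sums in the native organ of Corti and 69486 in native stria, against 30433 in native modiolus. In native stria Mbp was not above background, at 369.5. Of 4 markers of the stria epithelium 3 fell in the stria, with a sum of 79849 native against 19034 to 20851 in normoxia, where Kcnq1 was not above background. Of 2 measured fibroblast markers 1 fell, with a median difference of 0.02. In bulk tissue fewer cells of a type and less RNA per cell cannot be told apart, and the part of these cells in the values of the receptor genes was not tested. No hair cell, vessel or astrocyte marker of the lists was measured under its listed name, and Itgam, the 1 macrophage marker measured, was not above background on any array.

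Between native regions, calls among the members were few. The organ of Corti and the modiolus differed in 1 member, the AB016161cds_r_at probe set of Gabbr1. Of all probe sets 5.46% were called there (3.4% higher in the organ of Corti, 2.06% lower). The organ of Corti and the stria differed in 1, the AF058795_at probe set of Gabbr2, against 7.13% (4.67% higher, 2.45% lower). The modiolus and the stria differed in both of these, against 9.18% (4.75% higher, 4.43% lower). Unlike AB016161cds_r_at, the other probe sets of Gabbr1 were higher in native modiolus than in native stria. They gave 3733 against 1797.5 (AB016160_at), 2746 against 1781 (rc_AA926213_g_at), 1243 against 879 (AB016161cds_i_at) and 534 against 362 (AB016160_g_at). Over all probe sets 65.6% of the calls between native organ of Corti and stria were higher in the organ of Corti, against 56.8% after quantile normalization and 44.6% after median centring. For native modiolus against stria those shares were 51.7%, 41% and 34.4%. The calls for AB016161cds_r_at and AF058795_at kept their direction under these scalings.

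Between cultured regions, taken as the mean of normoxia and hypoxia, the organ of Corti differed from the modiolus in 5 members (2 higher, 3 lower), against 25.1% of all probe sets (11.9% higher, 13.2% lower). It differed from the stria in 3, all higher (Gad1 and 1 probe set each of Gabbr2 and Gabbr1), against 15.8% (10.5% higher, 5.23% lower). The modiolus differed from the stria in 3, all higher (2 probe sets of Chrna7 and 1 of Glra1), against 25.2% (16.8% higher, 8.39% lower). Neuronal markers were higher in the cultured organ of Corti than in the modiolus in 8 of 10 cases and lower in 1, higher than in the stria in 10 of 10, and higher in the modiolus than in the stria in 5 of 10 and lower in 2. Their part in the difference of Gad1 and Gabbr2 was not tested.

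The comparison of cultured modiolus and stria depends on how arrays are set to one scale. The median difference over all probe sets was 0.41 as deposited, 0.08 after quantile normalization and -0.02 after median centring, and the share of calls higher in the modiolus was 66.7%, 46.6% and 27.6%. For organ of Corti against stria the medians were 0.14, -0.05 and -0.18, and the shares 66.8%, 59.2% and 40.4%. The median over the 59 members was 0.55 for modiolus against stria, against 0.41 over all probe sets. With the scan session as a term, 13 members were called higher in cultured modiolus than in cultured stria instead of 3, among them Chrng (0.45 ± 0.13, adjusted p = 0.022) and Chrna3 (1.38 ± 0.39, adjusted p = 0.02). For organ of Corti against stria that term gave 5 calls instead of 3, adding Chrna1 (0.81 ± 0.23, adjusted p = 0.028) and Chrna3 (1.34 ± 0.39, adjusted p = 0.032). The replicate block gave the same counts of 13 and 5.

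**Figure D4:**
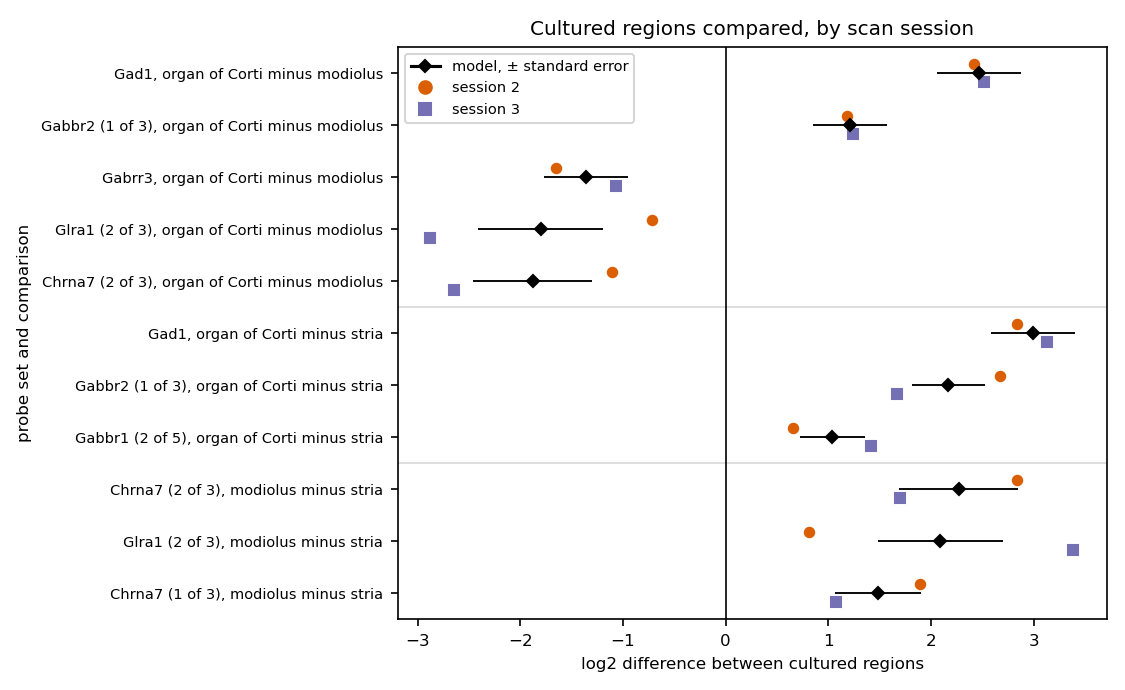
Log2 differences between cultured regions (horizontal axis) for each of the 11 calls among the members (rows). Diamonds are the model estimates with standard errors, circles the difference within scan session 2 and squares that within session 3. Gad1 and Gabbr2 (1 of 3) against the modiolus differ little between sessions, while Glra1 (2 of 3), never above background, spans -0.72 to -2.88.

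Hypoxia called no member. Over the mean of the regions 0 of 59 passed (limma; 7 at an unadjusted p under 0.05), against 0.158% of all probe sets called and 94 of 1263 at that unadjusted p. In the organ of Corti 0 members passed, with 3 at an unadjusted p under 0.05, against 0% of all probe sets. In the modiolus 0 passed, with 7 at that level, against 0.0792%, and in the stria 0 passed, with 4, against 0.238%. The F test of whether hypoxia acted differently between regions called 0 members, with 6 at an unadjusted p under 0.05, and 0% of all probe sets. Differences of the members ran from -0.88 to 1.26, with 35 of 59 above 0, and medians of 0.14 for the members and 0.05 for all probe sets.

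The 7 members at an unadjusted p under 0.05 are given by value. The M16407_at probe set of Chrm3 gave 0.60 ± 0.17 (adjusted p = 0.30), with 0.62 in session 2 and 0.58 in session 3. In the modiolus it gave 1.22 ± 0.30 (adjusted p = 0.31). The other probe set of Chrm3 (AB017656_s_at) went the opposite way, at -0.50 ± 0.40 (adjusted p = 0.92), lower in 6 of 6 pairs of region and session. Gad1 gave 1.10 ± 0.33 (adjusted p = 0.35), with 1.21 and 0.99, on signals of the modiolus and stria that were all below background. The AF058795_at probe set of Gabbr2 gave -0.88 ± 0.30 (adjusted p = 0.40), with -1.13 and -0.63. The other probe sets of Gabbr2 gave 0.21 ± 0.52 (AF074482_s_at) and 0.51 ± 0.60 (AF109405_s_at).

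In the stria alone AF058795_at of Gabbr2 gave -2.37 ± 0.51 (adjusted p = 0.12). Both hypoxic arrays were below background there and both normoxic ones above it, at least 1.81-fold apart. Within sessions the difference was -3.14 and -1.60, and with the session as a term it passed (-2.37 ± 0.45, adjusted p = 0.049). The other probe sets of Gabbr2 were higher after hypoxia in the stria, by 2.82 and 0.41 (AF074482_s_at) and by 0.42 and 0.11 (AF109405_s_at) within sessions. Neither was above background on both arrays of a cultured stria group. Chrna6, a nicotinic subunit best known from dopaminergic neurons, gave 1.26 ± 0.38 (adjusted p = 0.35) and was higher in 5 of 6 pairs of region and session. Chrnb2, the partner of Chrna4, gave 1.18 ± 0.45 (adjusted p = 0.50), higher in 6 of 6 pairs but above background on 2 arrays only. The 2 probe sets of Gabra3 went opposite ways, at 1.07 ± 0.45 and -0.63 ± 0.27 (both adjusted p = 0.60).

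**Figure D5:**
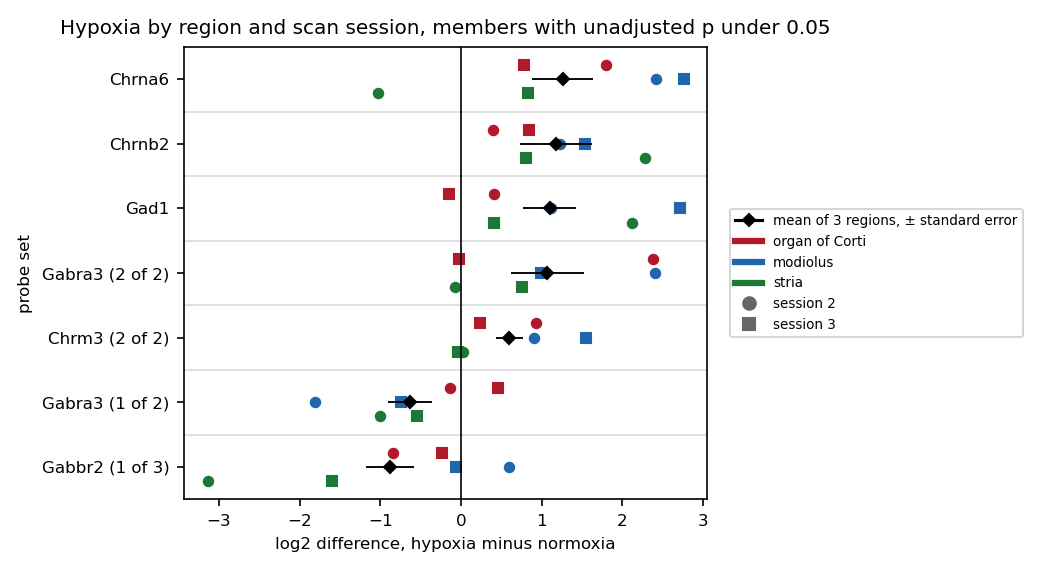
Log2 difference between hypoxic and normoxic culture (horizontal axis) for the 7 members with an unadjusted p under 0.05 (rows). Small symbols are single pairs by region (colour) and scan session (circle, session 2; square, session 3), and diamonds are the mean of the 3 regions with its standard error. Gabbr2 (1 of 3) lies lowest in the stria, at -3.14 and -1.60.

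Other genes of the same pathways were listed by role, and 7 of 24 were measured. Over the mean of the regions 1 fell in culture and 0 rose: Slc6a13, a GABA transporter, which gave 1755 in native modiolus, its 1 array above background, and 128 and 227 in normoxic modiolus. Its fall in the modiolus (-3.24 ± 0.68, adjusted p = 0.0044) rests on that 1 native array against values below background, and is at least 2.92-fold. Agrn, the agrin that clusters nicotinic receptors at the muscle endplate, fell in the modiolus by 0.94 (standard error 0.23, adjusted p = 0.01), from 13374 to 7608 and 6414.5. Slc32a1, the vesicular transporter for GABA and glycine, gave 149 in native modiolus and 831 and 832 in normoxic modiolus (2.36 ± 0.83, adjusted p = 0.065).

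Slc6a11, another GABA transporter, was above background on all arrays and lower in the cultured organ of Corti than in the modiolus by -0.73 ± 0.22 (adjusted p = 0.027). It was higher in the cultured modiolus than in the stria by 1.02 ± 0.22 (adjusted p = 0.0043). Abat, which degrades GABA, and Slc18a3, which loads acetylcholine into vesicles, gave -0.26 and -0.29 in culture and did not pass. Ache, the acetylcholinesterase, was not above background on any array. Hypoxia called 0 of the 7.

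Where a gene had several probe sets, they often gave different answers. Of the 13 genes with more than 1, the differences in culture spanned 1.74 within Gabbr1 and within Gabra3, 1.70 within Chrm3, 1.68 within Chrna7 and 1.61 within Gabbr2 and within Glra1, while Chrm4 and Gabrd spanned 0.16 and 0.20. In no gene were probe sets called in opposite directions. Of the 35 calls made among the members over all comparisons, 14 held in each fit without 1 array, and 11 of these were lost under no other processing that could be run for them: Gad1 in the organ of Corti against both other cultured regions, Gabbr2 in the modiolus in culture, in cultured organ of Corti against stria and in native modiolus against stria, AB016161cds_r_at of Gabbr1 in the mean of culture, in the stria in culture and in native modiolus against stria, and Chrm3, Chrna7 and Gabrr1 in the mean of culture. Of these 11, the 2 calls between native modiolus and native stria compare 1 array with 1 array, neither of which was left out, so that their estimates could not move. Gabbr2 in the modiolus in culture and Gabbr1 in the stria in culture each rest on 1 native array, which was also kept in every fit. The means of culture use those same native arrays, and in the organ of Corti alone the probe sets of Chrna7 and Gabrr1 were not called. For the 2 native calls, and for culture in the modiolus and in the stria, the fit of only the arrays compared could not be run. Each of the 11 calls is of 1 probe set, AF058795_at for Gabbr2, M16407_at for Chrm3 and L31619_at for Chrna7. The other probe sets of Gabbr2, Chrm3 and Chrna7 were not called in the same comparisons.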

How the data were processed

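Each probe set had 1 deposited intensity per array, linear and already scaled by the authors: the 2% trimmed mean was 2500 on all 16 arrays; the summary software is not given in the sources used here. Chip type and scan date came from the deposited experiment records, and arrays scanned in the same calendar month were taken as 1 session. Tests covered 1263 probe sets, without the 59 controls.

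Arrays were grouped by region and condition. Signals were used as log2(value + 16) with 1 mean per group, 7 residual degrees of freedom and a variance trend, so that groups of 1 array were assumed to vary like the others; the fit used limma 3.58.1, statmod 1.5.0 and R 4.3.3. Tests are two-sided, and the script was tested on simulated data first. With 1 or 2 arrays a group, the number of arrays limits precision.

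At-least folds are given where a group had no array above background, and raise every dim array on the lower side to its background. Gene symbols came from the platform annotation, and all 59 members matched a RefSeq gene number; a further nicotinic gene is not reported here. Members were given array by array where called in any comparison, or where, in their subfamily, they were above background on most arrays and on every array of at least 1 group. Members, lists and tests were chosen with earlier results of these data known. Alternatives were other pseudocounts, quantile normalization, median centring, no variance trend, a filter on probe sets above background on fewer than 2 arrays, session terms, a replicate block, only the arrays compared, each array left out, and, chosen after seeing the data, dim signals raised to background.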

Additional observations from a re-analysis of the deposited data

How the results depend on the processing

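Counts of members called mostly stayed within 1.5 times of the main count, and those that did not are given here. Only the arrays compared gave 6 calls for culture in the organ of Corti and 3 for cultured organ of Corti against modiolus, where median centring and the filter on dim probe sets gave 3 and signals raised to background 2. For native organ of Corti against modiolus, quantile normalization, median centring, the filter, the session as a fixed term or as a random block and the replicate block gave 2 calls, and no variance trend gave 0. The session as a fixed term gave 1 call for hypoxia in the stria, 5 for cultured organ of Corti against stria, 13 for cultured modiolus against stria (10 as a random block) and 2 for culture by region, where signals raised to background gave 1. With the replicate block, cultured organ of Corti against stria gave 5 and cultured modiolus against stria 13. In the cultures the repeat number is also the scan session. Differences between repeats 1 and 2 correlated over 0.1 in 12 of 21 pairs of groups, and in 10 of the 15 pairs of cultured groups (r = -0.006 to 0.284 over all pairs), so that the numbers go in part with a shared deviation but not in every pair.

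Without 1 array, counts ran from 9 to 12 for the mean of culture, 1 to 3 in the organ of Corti, 1 to 5 in the modiolus and 1 to 3 in the stria, 0 to 0 in every hypoxia comparison, 0 to 2, 0 to 1 and 2 to 3 between native regions, and 1 to 6, 2 to 3 and 1 to 9 between cultured regions (organ of Corti against modiolus, organ of Corti against stria, modiolus against stria). Cultured modiolus against stria gave 1 call without the first normoxic modiolus or the second hypoxic stria array, 7 without the second normoxic modiolus array and 9 without the first hypoxic stria array. Culture in the organ of Corti gave 1 call without its first native array, in the modiolus 1 without its second normoxic array and in the stria 1 without its first normoxic array. Native organ of Corti against modiolus gave 0 without either native organ of Corti array or the first hypoxic stria array and 2 without either hypoxic organ of Corti array, and native organ of Corti against stria gave 0 without either native organ of Corti array. Cultured organ of Corti against modiolus gave 3 without either normoxic organ of Corti array or the second hypoxic modiolus array, 2 without the first normoxic modiolus or the second hypoxic organ of Corti array and 1 without the second normoxic modiolus array. The fall of Gabra3 reversed to 0.21 with signals raised to background. Only the arrays compared could not be run for culture in the modiolus or stria or between native regions, which leave too few residual degrees of freedom. The cause of these changes was not tested. Signal over background limits most GABA-A, glycine and neuronal nicotinic members.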
